A study of Mus musculus with 12 samples.

Results

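Mural cells, the pericytes and smooth muscle cells that wrap brain vessels, were followed through 10 of their marker genes in the cortex of mice with and without progranulin. The genes were Acta2, Myh11, Tagln, Myl9, Pdgfrb, Notch3, Rgs5, Vtn, Abcc9 and Cspg4, taken by symbol as known mural markers and not by a measured value. They are 10 of the 27179 genes in the count table. All 10 were among the 15298 genes with enough counts to be tested. Acta2, Myh11, Tagln and Myl9 encode the contractile machinery and are treated as the contractile genes, and the other 6 as the pericyte and receptor genes.

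Pericytes sit in the basement membrane of capillaries, and smooth muscle cells ring arterioles and larger vessels, where they set vessel diameter. Endothelial cells recruit and keep both cell types through PDGF-B acting on the receptor encoded by Pdgfrb and through Notch ligands acting on Notch3. In smooth muscle the transcription factor SRF and its partner myocardin switch on contractile genes through a short DNA element called the CArG box.

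RNA was sequenced from cortex in 12 libraries, 4 per group. The WT group (Grn+/+) had both mouse copies of the gene for progranulin, a secreted protein delivered to lysosomes. Knockout mice (Grn-/-, KO) lacked it, and the humanized mice (Grn-/-;GRNmEx5, MUT) lacked it too and carried a human GRN allele with a disease-causing deletion. How that allele is driven is not given in the sources used here. WT replicate 1 was a female of 287 days and WT replicates 2 to 4 were males of 375 days. The KO libraries came from males of 308 and 282 days (replicates 1 and 2) and females of 282 days (replicates 3 and 4). MUT replicates 1, 2 and 4 were females of 287, 272 and 282 days, and MUT replicate 3 was a male of 309 days. The labels do not say that each library came from a separate animal, so a p value here measures only the spread between these libraries, which may be partly technical.

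Library totals ranged from 16381221 to 20782195 counts. Grn measured 57.0 to 59.9 CPM (the usual depth-scaled count unit, here with TMM-scaled library totals) in WT, 10.8 to 13.97 in KO and 11.5 to 15.3 in MUT, so every library labelled Grn-/- was below every WT library. The cortex libraries differed in what other tissue they held. A list level below is the mean log2 CPM of a list's genes in a library, after each gene's 12-library mean is subtracted. The choroid plexus level was 2.49 in WT replicate 4, 3.31 in MUT replicate 1 and 3.64 in KO replicate 3, against -0.47 or lower in each of the other 9 libraries. The level of striatal projection neuron genes was 0.72, 1.54 and 2.50 in WT replicates 2, 3 and 4, and at most 0.13 in every other library.

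CArG boxes were looked for in the promoters of the members, as a description of sequence. The part of these boxes in the levels across libraries was not tested. RefSeq promoter windows (GRCm38.p6, 250 bases before to 50 after the start) were at hand for 7 of the 10 members, namely Acta2, Myl9, Rgs5, Vtn, Abcc9, Cspg4 and Notch3. The search was for CC, 6 bases of A or T, and GG, and also for a form with 5 of the 6 bases A or T, chosen after the sequences were seen; both forms read alike on the 2 strands. The strict form was in 1.63% and the form allowing a mismatch in 9.98% of 32851 RefSeq promoters. Of the 7 windows the strict form was in 1, that of Myl9. The second form was present in the windows of Acta2 and Myl9, the 2 contractile genes with a window, and in none of the other 5. It was chosen with these windows in view, so this split is a description and not a test. The 250 bases before the RefSeq start of both genes follow, 5′ to 3′ on the gene's strand, with the CArG matches in capitals. The Acta2 stretch is chr19:34255374-34255623 on the minus strand and the Myl9 stretch is chr2:156775214-156775463 on the plus strand.
Acta2: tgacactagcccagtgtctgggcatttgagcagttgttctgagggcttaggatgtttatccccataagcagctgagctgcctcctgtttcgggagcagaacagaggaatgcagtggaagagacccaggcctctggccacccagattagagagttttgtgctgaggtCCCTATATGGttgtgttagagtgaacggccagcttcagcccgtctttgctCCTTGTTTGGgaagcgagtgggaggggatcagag
Myl9: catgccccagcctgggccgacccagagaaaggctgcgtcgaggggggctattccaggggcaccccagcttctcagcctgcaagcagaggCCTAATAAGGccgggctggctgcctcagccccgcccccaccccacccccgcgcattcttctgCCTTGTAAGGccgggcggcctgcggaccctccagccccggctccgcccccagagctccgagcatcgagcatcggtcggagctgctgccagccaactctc

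In Myl9 the strict match CCTAATAAGG lies at positions -161 to -152 from the start, and CCTTGTAAGG at -99 to -90. The Acta2 matches CCCTATATGG and CCTTGTTTGG lie at -84 to -75 and at -34 to -25 from the RefSeq start. The deposited count table starts Acta2 37 bases further downstream, which puts the same matches at -121 to -112 and at -71 to -62. The core of the motif bound by RBPJ, the DNA-binding partner of Notch (TGGGAA on either strand), was in the windows of Vtn, Acta2 and Abcc9, 3 of 7, and in 25.6% of all promoters. These matches describe letters in a window and not occupied sites.

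Per length of transcript, the most abundant of the 10 was Vtn, which encodes vitronectin, a secreted adhesion protein made by brain pericytes. Its level over the 12 libraries was 32.1 ± 5.13 RPKM (CPM per kilobase of exon in the deposited table; mean ± SD, n = 12). Rgs5, a regulator that shortens G protein signals in pericytes, followed at 20.3 ± 2.39 RPKM. Both orders held in 12 of 12 libraries, Vtn above Rgs5 and Rgs5 above Myl9. Myl9 (6.87 to 17.3 RPKM) and Acta2 (8.93 ± 4.19 RPKM) were not separated by their spread, since Myl9 was the higher in 8 libraries. Acta2 exceeded Tagln (5.18 ± 2.16 RPKM) in 12 of 12 libraries. Tagln and Pdgfrb (4.79 ± 0.636 RPKM) were not separated, with Tagln higher in 6. Pdgfrb exceeded Myh11 (1.93 to 6.74 RPKM) in 11 libraries. Myh11, Cspg4 (2.90 ± 0.268 RPKM) and Notch3 (2.80 ± 0.355 RPKM) overlapped in level, and Abcc9 was the lowest at 1.59 ± 0.191 RPKM, below Notch3 in 12 of 12 libraries.

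The contractile genes varied most between libraries. Acta2, smooth muscle alpha-actin (Entrez 11475; mm10 chromosome 19, 34241091 to 34255336, minus strand), measured 9.74, 18.5, 21.6 and 19.0 CPM in WT replicates 1 to 4, 10.03, 10.3, 17.1 and 7.77 in KO, and 35.2, 15.4, 12.1 and 13.98 in MUT. MUT replicate 1 stood above all others, WT replicate 1 was the one low WT library, and KO replicate 3 the one high KO library, so the 3 groups overlapped. Means were 17.2 ± 5.16 CPM in WT, 11.3 ± 4.02 in KO and 19.2 ± 10.8 in MUT (SD, n = 4). Actin genes are alike in sequence and the way shared reads were counted is not given, so part of any Acta2 value could belong to another actin. Its closest paralog Actg2 had 27 counts in all 12 libraries together, while Acta1, another actin gene, had 2001.

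Myh11, the heavy chain of smooth muscle myosin (Entrez 17880; chromosome 16, 14194527 to 14291408, minus strand), measured 13.8, 20.1, 27.2 and 21.6 CPM in WT, 16.1, 13.0, 24.0 and 12.8 in KO, and 44.7, 17.7, 14.9 and 18.2 in MUT. The same 3 libraries stood out, MUT replicate 1 and KO replicate 3 as the highest of their groups and WT replicate 1 as the lowest of its own. Tagln, transgelin, an actin-binding protein of smooth muscle (Entrez 21345; chromosome 9, 45929628 to 45936058, minus strand), measured 6.93, 7.90, 10.3 and 8.41 CPM in WT, 6.20, 5.92, 8.43 and 4.08 in KO, and 17.8, 8.52, 7.22 and 6.75 in MUT. KO replicate 4, with 73 counts, was the lowest of all libraries for Tagln and rests on the fewest counts of any value here. Myl9, the myosin regulatory light chain that carries the contraction-triggering phosphorylation (Entrez 98932; chromosome 2, 156775464 to 156781657, plus strand), measured 9.41, 10.2, 12.6 and 11.3 CPM in WT, 8.67, 7.44, 13.1 and 9.33 in KO, and 18.7, 10.5, 9.23 and 9.54 in MUT. Its ranges overlapped between all 3 groups as well.

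The highest library exceeded the lowest 4.53 times for Acta2, 4.38 times for Tagln, 3.49 times for Myh11 and 2.51 times for Myl9. For the 6 pericyte and receptor genes this ratio was 1.35 to 1.65. Ranked by the SD of log2 CPM over the 12 libraries among all 15298 tested genes, Acta2 was at percentile 96.3, Myh11 at 94.4, Tagln at 93.8 and Myl9 at 84.4, while the other 6 ran from 47.1 for Cspg4 to 70.1 for Vtn. MUT replicate 1 was the highest library of all for 8 of the 10 genes, and WT replicate 4 for Rgs5 and Cspg4. Within their groups, MUT replicate 1 was highest for 9 of 10 genes, KO replicate 3 for 10 of 10, and WT replicate 1 was lowest for 9 of 10.

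**Figure D1:**
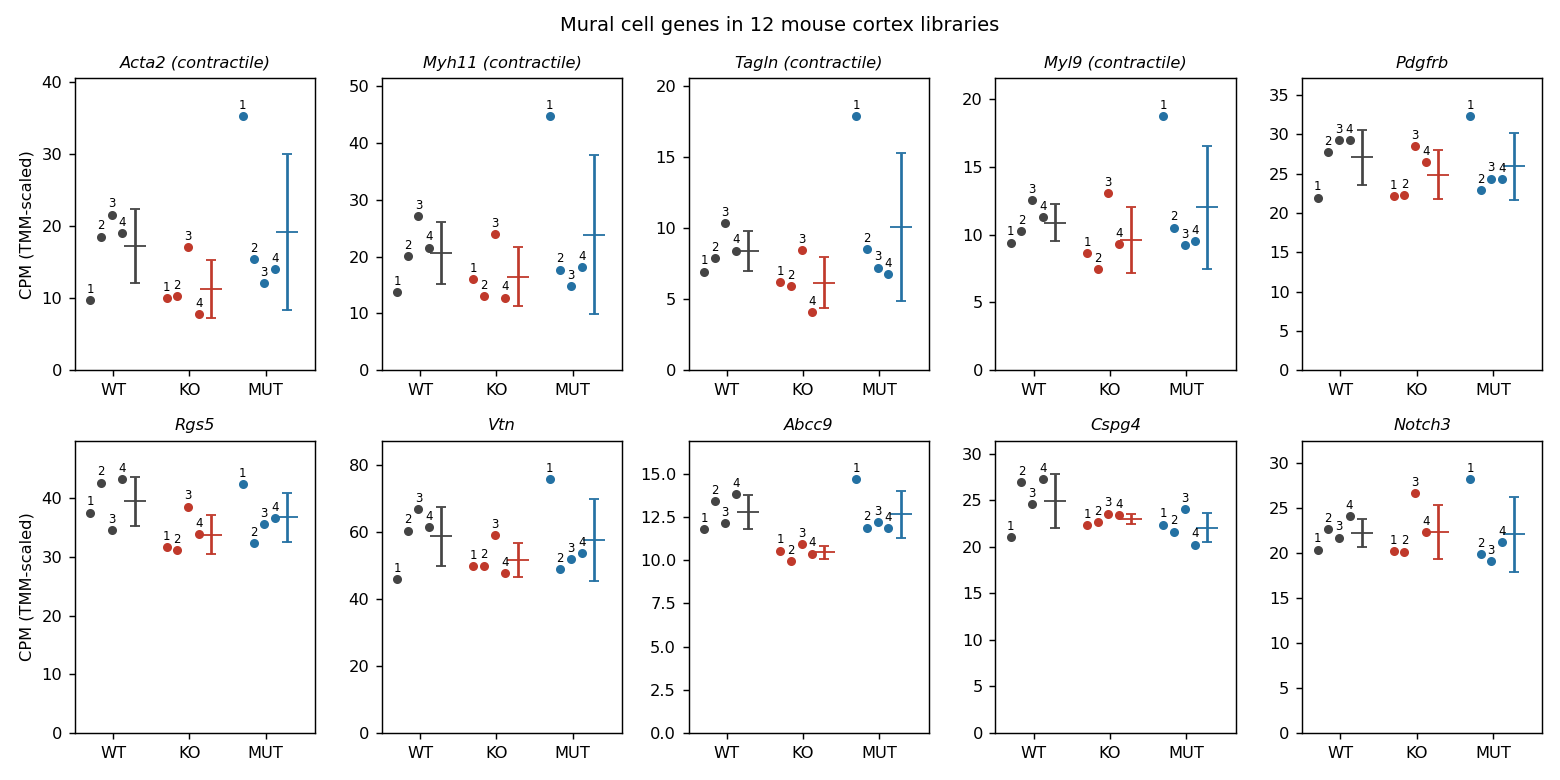
CPM (vertical axes, from 0) of the 10 genes in each library, shown as points numbered by replicate, with the group mean as a horizontal bar and 1 SD as error bar (n = 4). MUT replicate 1 is highest in the panels of all 4 contractile genes, at 35.2 CPM for Acta2 and 44.7 for Myh11, and the KO points of Abcc9 all lie below the WT and MUT points.

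Among the receptors, Pdgfrb, the PDGF-B receptor of mural cells (Entrez 18596; chromosome 18, 61045150 to 61085067, plus strand), measured 22.0, 27.8, 29.3 and 29.3 CPM in WT, 22.2, 22.3, 28.4 and 26.4 in KO, and 32.3, 22.9, 24.4 and 24.3 in MUT. WT replicate 1 lay at the level of the lowest KO libraries and the groups overlapped. Notch3, the Notch receptor of mural cells that is mutated in the hereditary small vessel disease CADASIL (Entrez 18131; chromosome 17, 32120893 to 32166852, minus strand), measured 20.4, 22.7, 21.7 and 24.2 CPM in WT, 20.2, 20.2, 26.7 and 22.3 in KO, and 28.2, 19.9, 19.2 and 21.2 in MUT. Its group means were nearly equal, at 22.3 ± 1.58, 22.4 ± 3.05 and 22.1 ± 4.17 CPM in WT, KO and MUT.

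Of the pericyte products, Rgs5 (Entrez 19737; chromosome 1, 169655501 to 169693526, plus strand) measured 37.6, 42.7, 34.5 and 43.3 CPM in WT, 31.7, 31.2, 38.6 and 33.9 in KO, and 42.5, 32.4, 35.6 and 36.7 in MUT. KO replicate 3 lay inside the WT range and the other 3 KO libraries below it. Vtn (Entrez 22370; chromosome 11, 78499120 to 78502325, plus strand) measured 45.9, 60.4, 66.9 and 61.3 CPM in WT, 49.8, 49.96, 59.1 and 47.7 in KO, and 75.7, 49.0, 51.8 and 53.7 in MUT. WT replicate 1 was the lowest of all 12 libraries for Vtn, and its groups overlapped.

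Abcc9, the sulphonylurea receptor subunit of the ATP-sensitive potassium channel of mural cells (Entrez 20928; chromosome 6, 142587862 to 142702274, minus strand), measured 11.8, 13.4, 12.2 and 13.8 CPM in WT, 10.6, 9.96, 10.9 and 10.4 in KO, and 14.7, 11.9, 12.2 and 11.9 in MUT. It was the 1 member for which all KO libraries lay below all WT libraries and below all MUT libraries. Cspg4, the proteoglycan that marks pericytes and also oligodendrocyte precursors (Entrez 121021; chromosome 9, 56865104 to 56899870, plus strand), measured 21.0, 27.0, 24.6 and 27.3 CPM in WT, 22.4, 22.6, 23.6 and 23.4 in KO, and 22.4, 21.6, 24.0 and 20.2 in MUT. It was the 1 member for which MUT replicate 1 was not the highest MUT library. The level of 12 other oligodendrocyte precursor genes stayed between -0.13 and 0.10 in all 12 libraries.

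The first comparison asks what loss of mouse Grn did to these genes. In the fit with labelled sex all 10 had a log2 fold change below 0 in KO against WT, from -0.64 (Acta2) to -0.04 (Notch3), and none passed the test. Notch3 had nearly equal group means, slightly higher in KO, and with no sex term 9 of the 10 lay below 0. The test was edgeR's quasi-likelihood F test with labelled sex in the model and Benjamini-Hochberg adjustment over all 15298 genes, at a threshold of 0.05, which 75 genes (0.49%) passed. DESeq2 and limma-voom also called none of the 10. At an unadjusted p under 0.05 there were 2 members, Abcc9 and Rgs5, beside 17.6% of all genes. The median log2 fold change was -0.25 over the 10, -0.44 over the contractile genes and -0.16 over the pericyte and receptor genes, against 0.0047 over all genes. In these bulk samples fewer mural cells and less RNA per mural cell cannot be told apart.

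Abcc9 had the smallest p. Its log2 fold change in KO against WT was -0.29 with an SE of 0.09 (95% interval -0.49 to -0.09, edgeR adjusted p = 0.138). Libraries that all lay lower in KO were found for 737 of the tested genes (4.82%), so 1 of 10 members with that pattern was near the background. Without WT replicate 1 the value was -0.36 and passed the threshold (edgeR adjusted p = 0.049). In that setting 1620 of the 15480 genes tested passed, so the call of Abcc9 does not set it apart. The WT libraries left there are all from males of 375 days, so age and genotype cannot be told apart. Under the other alternatives the adjusted p of Abcc9 ranged from 0.0728 to 0.872. Rgs5 differed by -0.24 (SE 0.10, interval -0.46 to -0.03, edgeR adjusted p = 0.234).

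The contractile genes had larger differences with wider errors. Acta2 differed by -0.64 with an interval of -1.63 to 0.35 (SE 0.44, edgeR adjusted p = 0.494). Tagln differed by -0.48 (interval -1.23 to 0.28) and Myh11 by -0.40 (interval -1.33 to 0.54). Myl9 differed by -0.26, with an interval of -0.79 to 0.26. All 4 intervals include no difference and also a decrease of 0.79 or more, so the size of any change was not settled at this number of libraries. Of the rest, Vtn differed by -0.17, Pdgfrb by -0.14, Cspg4 by -0.08 and Notch3 by -0.04, with edgeR adjusted p from 0.613 for Vtn to 0.911 for Notch3.

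The second comparison set the humanized mutant against WT. No member passed (2 genes of all tested did, 0.0131%), none had an unadjusted p under 0.05 in edgeR against 10.9% of all genes, and DESeq2 and limma-voom called none. Differences went both ways, 3 above 0 and 7 below, with a median of -0.010. The contractile genes had a median of 0.10, from -0.0009 for Myl9 to 0.21 for Tagln, and all 6 pericyte and receptor genes lay between -0.14 (Rgs5) and -0.01 (Vtn and Abcc9). Cspg4, at -0.11, had the smallest edgeR adjusted p, 0.636. No member had groups without overlap, beside 7.09% of all genes in either direction. The contractile median rests on MUT replicate 1: without it all 10 members lay below 0, the contractile median was -0.24 and the pericyte and receptor median -0.16.

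The third comparison set the 2 Grn-null groups against each other, which also tests whether their differences from the shared WT libraries are unequal. No member passed (1 gene of all tested did, 0.00654%), and DESeq2 and limma-voom called none. MUT lay above KO for 8 of the 10, with a median log2 difference of 0.21 and a contractile median of 0.59. Acta2 was 0.75 higher in MUT (SE 0.43, interval -0.22 to 1.71) and Tagln 0.69 higher (SE 0.34, interval -0.06 to 1.44, edgeR adjusted p = 0.900). Abcc9, at 0.28 (SE 0.09, interval 0.08 to 0.48), had the smallest edgeR adjusted p, 0.741, and was the 1 member with an unadjusted p under 0.05, beside 5.67% of all genes. Its MUT libraries all lay above its KO libraries, a pattern held by 3.37% of all genes. Without MUT replicate 1 the contractile median was 0.17 and the pericyte and receptor median -0.02.

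**Figure D2:**
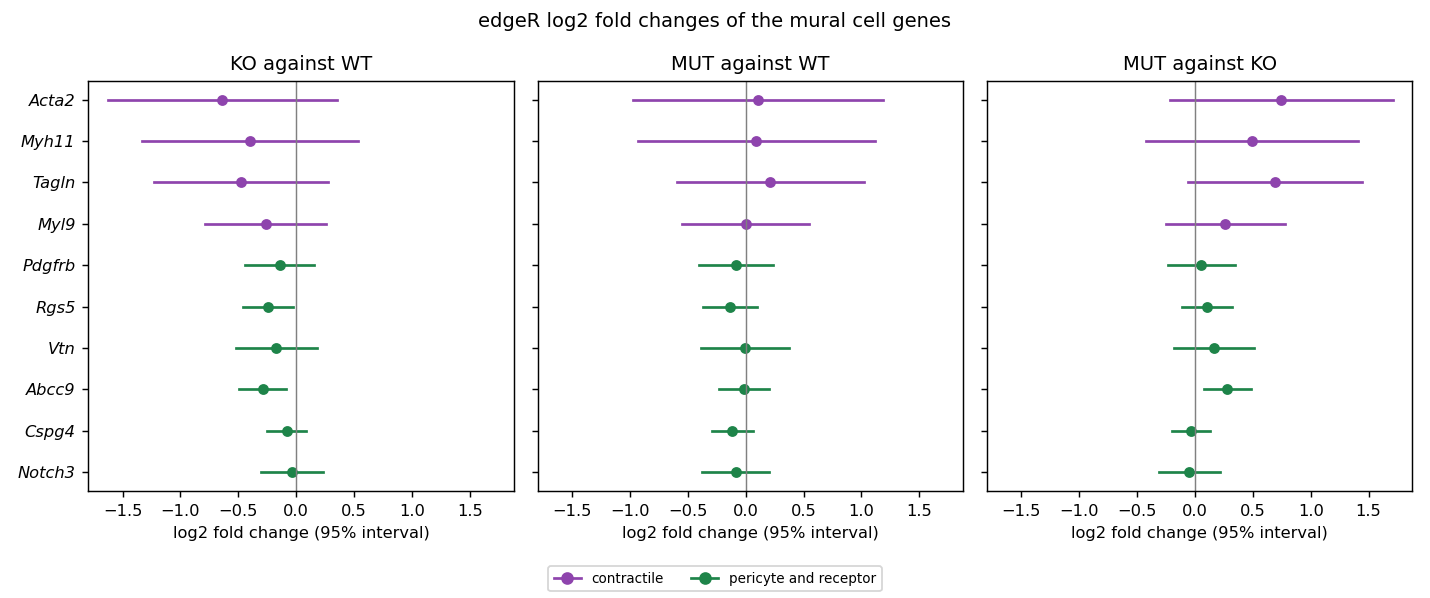
Log2 fold change of each gene (points) with its 95% interval (lines) in the 3 comparisons, from the edgeR fit of all 12 libraries. All 10 points lie below 0 for KO against WT, where the intervals of Abcc9 and Rgs5 lie wholly below 0 before adjustment, and the intervals of the contractile genes are the widest in each panel.

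Age differed with genotype. The 3 libraries of 375 days were all WT and no other library was older than 309 days, so for them age and genotype cannot be told apart. The 287-day WT replicate 1 was also the WT library with low mural values, and the only female of the WT group. Sex, age and striatal level split the WT libraries in the same way, so within WT they cannot be told apart. With age in days added to the edgeR model the median of the 10 in KO against WT was 0.31 instead of -0.25, with 8 members above 0, and Acta2 stood at 0.54. WT replicate 1 was the only WT library near the ages of the KO and MUT libraries, so this fit leans on that library. With the animals under 310 days only, which leaves 1 WT library whose spread is taken from the other groups, the median was 0.25 with 7 members above 0. In MUT against WT the same settings gave medians of 0.36 and 0.33 with all 10 members above 0. The striatal gene level ran with the same WT libraries, and as a term in the model it moved the KO median to 0.02, with 6 members above 0. No member passed the threshold in edgeR under any of these settings. Of 29 alternative settings these 3 gave a KO median above 0. The part of age or of striatal tissue in the lower KO values was not tested.

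**Figure D3:**
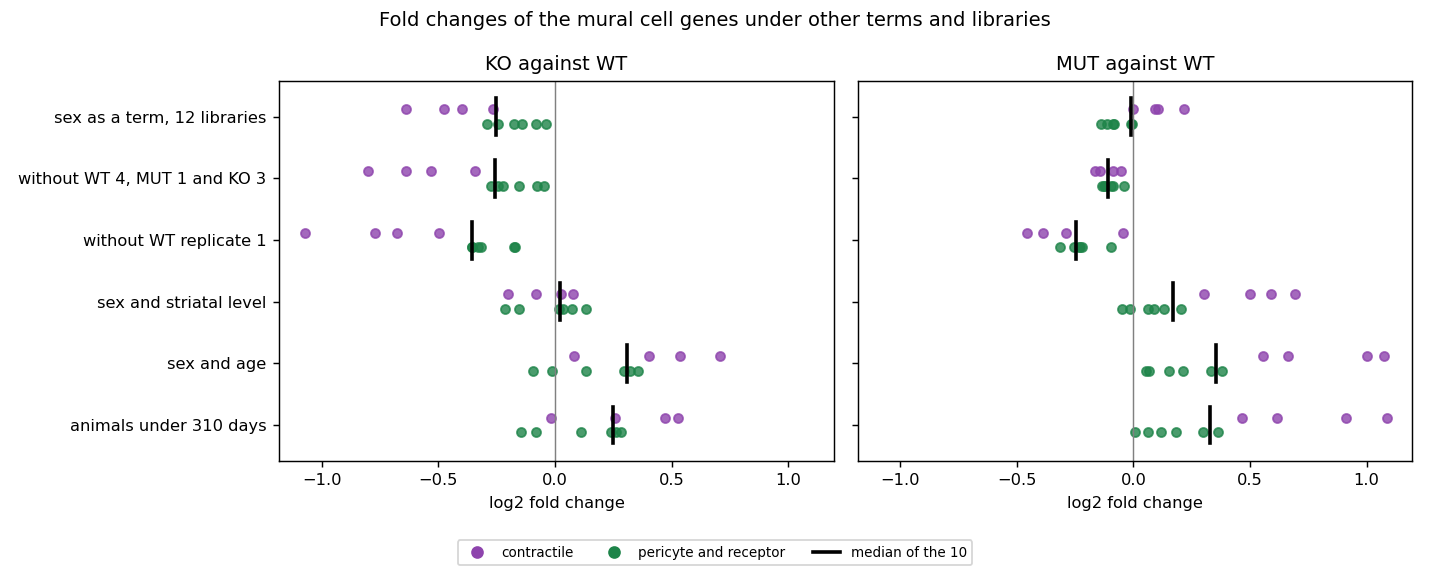
Log2 fold changes of the 10 genes (points, contractile and other genes on separate rows) and their median (bar) in KO against WT and MUT against WT, under the model with sex and 5 other settings. The KO points move from below 0 in the first 3 rows to both sides of 0 with a striatal term and mostly above 0 with an age term or in animals under 310 days.

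Across the 12 libraries the contractile level followed the level of the pericyte and receptor genes and of endothelial genes. The contractile level was 1.13 in MUT replicate 1, 0.43 in WT replicate 3 and 0.25 in KO replicate 3, and lowest in KO replicate 4 at -0.64. With the pericyte and receptor level, Pearson's r was 0.84 and Spearman's rho 0.80 (n = 12, permutation test, two-sided, p = 0.00049, adjusted p = 0.00113 over the 5 relations computed). With 20 endothelial genes, r was 0.94 and rho 0.92 (p = 1e-05, the smallest that 100000 permutations can give, adjusted p = 5e-05). The pericyte and receptor level followed the endothelial level with r = 0.83 and rho = 0.90 (permutation p = 0.00068, adjusted p = 0.00113). Each pair of levels comes from the same library and so shares its depth and its tissue. With the endothelial level as a term in edgeR, the median of the 10 was -0.07 in KO against WT and -0.03 in MUT against KO, with contractile medians of -0.16 and 0.12.

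Leaving out the 2 libraries farthest from the median of the second measure kept these 3 relations. Without MUT replicate 1 and WT replicate 4, r of the contractile with the pericyte and receptor level was 0.74 (permutation adjusted p = 0.0281, n = 10). Without MUT replicate 1 and WT replicate 3, r with the endothelial level was 0.79 for the contractile and 0.76 for the pericyte and receptor genes (permutation adjusted p = 0.0228 for both). Within the 6 libraries labelled female r was 0.89, 0.95 and 0.98 for the 3 relations in that order. Within the 6 labelled male it was 0.86, 0.92 and 0.69. In the male libraries only the r of contractile with endothelial genes passed the exact permutation test over the family (adjusted p = 0.0208). By rank, rho was 0.60, 0.89 and 0.83 in the female and 0.83, 0.94 and 0.77 in the male libraries. No rho passed within either sex (permutation adjusted p of 0.0729 or more).

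The level of 16 meningeal and perivascular fibroblast genes was 1.19 in MUT replicate 1 and at most 0.36 elsewhere. Its r with the contractile level was 0.77 and rho 0.56 (permutation adjusted p = 0.0114 for r and 0.0795 for rho). Without MUT replicate 1 and WT replicate 2, r was 0.61 and no longer passed (permutation adjusted p = 0.078, n = 10), while rho was 0.64 (permutation adjusted p = 0.0665). In the female libraries r was 0.92 and rho 0.89, and in the male libraries 0.48 and 0.54. With the pericyte and receptor level r was 0.54 and rho 0.39, and neither passed (permutation adjusted p = 0.059 for r and 0.209 for rho). Within the female libraries this r was 0.96 and passed (permutation adjusted p = 0.0139), with rho at 0.83. Within the male libraries r was 0.10 and rho 0.14. With the fibroblast level as a term in edgeR, the median of the 10 was -0.23 in MUT against WT and 0.0092 in MUT against KO.

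**Figure D4:**
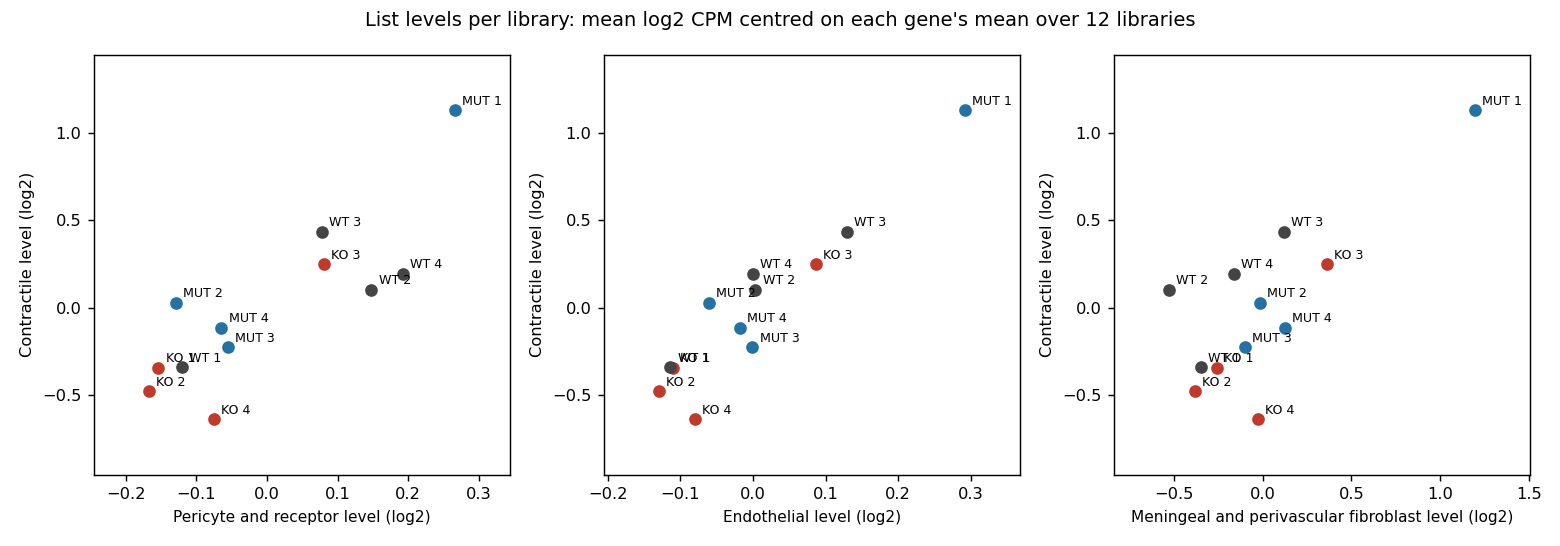
Contractile level (vertical axes) of each library against its pericyte and receptor, endothelial and meningeal fibroblast levels (horizontal axes), all as mean log2 CPM centred per gene, with groups coloured. MUT replicate 1 is the highest library on all 4 levels, at 1.13, 0.27, 0.29 and 1.19. In the endothelial panel KO replicate 2 is lowest in endothelial level and KO replicate 4 in contractile level. Of the other 11 libraries WT replicate 3 is highest on both.

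MUT replicate 1, the library with the highest mural values, therefore also had the highest levels of endothelial genes (0.29), vessel basement membrane genes (0.27) and meningeal fibroblast genes (1.19), and the second highest choroid plexus level. Summed over the 16 fibroblast genes it reached 441 CPM, against at most 273 in KO and 213 in WT. The part of adhering meninges or choroid plexus in its mural values was not tested. Skeletal muscle genes, another set of contractile transcripts, summed over 8 genes to 10.7 to 13.98 CPM in WT, 14.4 to 16.2 in KO and 12.4 to 14.3 in MUT. Most of that was Acta1, at a mean of 9.05 CPM over the 12 libraries, while Ckm, Tnnt3 and Tnni2 had 7, 15 and 37 counts in all libraries together, and the part of such tissue in the mural values was not tested. Without WT replicate 4, MUT replicate 1 and KO replicate 3, the 3 libraries high in choroid plexus genes, all 10 members had fitted values below 0 against WT in KO and in MUT, with contractile medians of -0.58 and -0.12.

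The genes most like the members across the 12 libraries were ranked by r of log2 CPM with the list levels among 14202 genes, as a description. Nearest to the contractile level was Des (r = 0.97), which encodes desmin, the muscle intermediate filament. Also near it was Mrvi1 (0.94), a partner of the cGMP kinase that relaxes smooth muscle. Cyp1b1, Cavin1 and Col4a6 were at 0.94 each. Nearest to the pericyte and receptor level were Hs3st3b1, a heparan sulphate sulphotransferase, Cp, ceruloplasmin, and Parp3, at 0.94 each. Erap1, Alpl and Atp13a5, the last a pericyte transporter gene, followed at 0.93. Of the genes named here, Des and Atp13a5 also stood in the mural gene lists.

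The first list held other genes of the contractile apparatus. Of 21 listed, 19 were tested and none passed in edgeR in any comparison, while 5 had an unadjusted p under 0.05 in KO against WT, 4 in MUT against WT and 1 in the contrast of MUT with KO. In KO against WT 14 of the 19 lay below 0 with a median of -0.32. The medians were 0.0019 in MUT against WT and 0.23 in MUT against KO. Tpm1, a tropomyosin, measured 213 ± 14.6 CPM in WT, 195 ± 9.44 in KO and 193 ± 2.44 in MUT (SD, n = 4). Srf, the factor that binds CArG boxes, measured 76.0 ± 5.54, 82.8 ± 6.05 and 80.9 ± 8.86 CPM in the same order. Ppp1r12b, a myosin phosphatase subunit, measured 42.8 ± 1.09, 36.2 ± 3.22 and 39.3 ± 4.99 CPM. Slmap, a sarcolemma-associated membrane protein, measured 137 ± 18.6, 111 ± 1.57 and 114 ± 1.90 CPM. DESeq2, which called 647 genes (4.23%) in KO against WT, called Slmap lower at -0.28 (DESeq2 adjusted p = 0.0157).

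The list of other pericyte genes held 23 tested genes, of which edgeR, DESeq2 and limma-voom called none in any comparison. At an unadjusted edgeR p under 0.05 there was 1 in KO, 1 in MUT against WT and 2 in MUT against KO. In KO 16 of the 23 lay below 0, with a median of -0.12, and the medians were 0.03 in MUT against WT and 0.11 in MUT against KO. Mcam, an adhesion molecule of mural and endothelial cells, measured 21.0 ± 5.99 CPM in WT, 20.7 ± 3.86 in KO and 19.3 ± 3.80 in MUT. Atp13a5 measured 12.9 ± 0.781, 11.5 ± 1.07 and 12.1 ± 1.35 CPM. Zic1, a transcription factor shared with meningeal cells, measured 18.9 ± 10.5, 12.3 ± 4.09 and 15.3 ± 6.98 CPM.

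The ligands, receptors and mediators of PDGF-B, Notch and TGF-beta signalling to mural cells numbered 27, all tested. EdgeR called none in any comparison, with 3, 2 and 2 at an unadjusted p under 0.05 in the 3 comparisons, in the order used above. Their medians were -0.03, 0.0030 and 0.06. Pdgfra, a sister receptor found on oligodendrocyte precursors, measured 48.5 ± 6.55 CPM in WT, 49.3 ± 5.08 in KO and 48.7 ± 1.87 in MUT. Hey1, a target of Notch, measured 54.8 ± 4.69, 44.9 ± 2.80 and 46.2 ± 2.03 CPM. Jag2, a Notch ligand, measured 61.0 ± 5.97, 67.1 ± 1.95 and 62.1 ± 2.30 CPM, and Smad3, a TGF-beta mediator, 104 ± 26.1, 118 ± 20.6 and 116 ± 13.7. DESeq2 called 2 of the 27 lower in KO, Hey1 at -0.27 (DESeq2 adjusted p = 0.0184, edgeR 0.081) and Smad4 at -0.25 (DESeq2 adjusted p = 0.0242, edgeR 0.0814).

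In the vessel basement membrane, 12 genes were tested and edgeR called none, with 2, 2 and 0 at an unadjusted p under 0.05 in the 3 comparisons. DESeq2 called 2 lower in KO, the linked genes of the collagen IV chains, Col4a1 at -0.31 (DESeq2 adjusted p = 0.0147, edgeR 0.081) and Col4a2 at -0.32 (DESeq2 adjusted p = 0.0158, edgeR 0.0842). Col4a2 measured 114 ± 13.4 CPM in WT, 88.9 ± 9.41 in KO and 89.5 ± 7.44 in MUT. Agrn (agrin), the most abundant of the list, measured 283 ± 3.63, 288 ± 6.78 and 273 ± 5.24 CPM. The list medians were -0.07, 0.05 and 0.09. Col4a1 and Smad4 were picked out because DESeq2 called them.

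The marker lists of neighbouring cell types were also without an edgeR call in any comparison. Medians in the 3 comparisons, in the same order, were -0.04, -0.02 and 0.13 over 20 endothelial genes and 0.04, 0.38 and 0.44 over 16 meningeal fibroblast genes. Over 12 oligodendrocyte precursor genes they were 0.02, 0.0038 and -0.04, and DESeq2 called Sox10 higher in KO at 0.32 (adjusted p = 0.0259). Over 10 choroid plexus genes they were -0.42, -0.79 and -0.37, and over 4 blood cell genes -0.42, -0.26 and 0.15. The measured choroid plexus levels did not follow these fitted values, with means of -0.13 in WT, -0.02 in KO and 0.15 in MUT. Ttr, the most abundant choroid plexus gene of the list, was at -3.15 with an SE of 3.50 in KO against WT. Over 5 skeletal muscle genes the medians were 0.47, 0.20 and -0.24, with 3, 0 and 1 at an unadjusted p under 0.05. Over 11 striatal genes they were -1.34, -1.55 and -0.05, with 9, 8 and 0 genes at an unadjusted p under 0.05, and DESeq2 called 3 of them lower in KO.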

How the data were processed

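Per the file headers, the authors deposited raw read counts per gene for 12 libraries with summed exon lengths, in featureCounts' column layout. The tools in the submitters' processing notes are R 4.1.2 and DESeq2 1.34.0, with mm10. The kit is directional per the labels' protocols. What aligned and counted the reads, and with which strand setting, is not given in the sources used here; overlapping or antisense genes may share reads. EdgeR 4.0.16 (R 4.3.3) was used on genes kept by filterByExpr (minimum count 10, total 15), with TMM scaling, robust quasi-likelihood dispersions and group means plus labelled sex (8 residual degrees of freedom; common biological coefficient of variation 0.101). Log2 CPM used a prior count of 2. Over 66 pairs of libraries chi-square per degree of freedom was at least 3.62, so none was the same library sequenced again. Libraries made separately from the same animal would not be seen this way. The 10 members, the lists, the tests and most alternatives were chosen with earlier results of these data known. Of each list, genes past the threshold, or else some of the 4 with the highest mean CPM, are named, plus those DESeq2 called; predicted gene models were left out of the nearest genes, and 1 of those is not reported here. Alternatives included DESeq2 1.42.0, limma-voom (limma 3.58.1), other scalings, filters, covariates and left-out libraries. A fit without robust dispersions, one without MUT replicate 1 and KO replicate 3, and list counts by DESeq2 and limma-voom were added after seeing the data. EdgeR was tested on simulated data. RefSeq promoters matched 7 members by Entrez ID.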

Additional observations from a re-analysis of the deposited data

Results flagged for a closer look

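MUT replicate 1 stood apart from the other 3 MUT libraries for 6 of the 10 mural genes by Dixon's rule for a sample far from its group. It measured 32.3 CPM for Pdgfrb, 35.2 for Acta2, 44.7 for Myh11, 17.8 for Tagln, 14.7 for Abcc9 and 18.7 for Myl9. The other MUT libraries reached at most 24.4, 15.4, 18.2, 8.52, 12.2 and 10.5 CPM for the same genes. Of 36 groups of 4 libraries checked, these 6 were past the limit, all of them in MUT replicate 1, and chance marks about 1 in 20. The 10 genes come from the same libraries and are not independent. The library's meningeal fibroblast level of 1.19 and choroid plexus level of 3.31 moved with these values, and their part in them was not tested.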

How the results depend on the processing

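Over 29 alternatives none of the 10 genes passed the threshold in MUT against WT or in MUT against KO. In KO against WT 1 did once, Abcc9 without WT replicate 1, where 1620 of the 15480 genes tested passed. With each library left out in turn the number passing in KO against WT was 0 to 1, and the median log2 fold change of the 10 was -0.36 to -0.19 there, -0.24 to 0.08 in MUT against WT and 0.02 to 0.29 in MUT against KO. Without MUT replicate 1 and KO replicate 3, left out after their values were seen, all 10 lay below 0 in KO and in MUT against WT, with contractile medians of -0.58 and -0.13. Of 290 gene values per comparison, 24 had the opposite sign in KO against WT, 67 in MUT against WT and 14 in MUT against KO; the values that also moved by more than their SE follow, none of them past the threshold in edgeR, and the cause was not tested.

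With sex and age as terms the median was 0.31 in KO against WT (Pdgfrb 0.35, Acta2 0.54, Myh11 0.71, Tagln 0.080, Vtn 0.29, Cspg4 0.13, Notch3 0.32 and Myl9 0.40) and 0.36 in MUT against WT (Pdgfrb 0.33, Rgs5 0.053, Vtn 0.38, Abcc9 0.15, Cspg4 0.067, Notch3 0.21 and Myl9 0.55). In animals under 310 days, with 1 WT library, it was 0.25 in KO (Pdgfrb 0.28, Acta2 0.47, Myh11 0.53, Vtn 0.24, Cspg4 0.11, Notch3 0.26 and Myl9 0.26) and 0.33 in MUT against WT (Pdgfrb 0.30, Rgs5 0.0056, Vtn 0.36, Abcc9 0.12, Cspg4 0.062, Notch3 0.18 and Myl9 0.47). With the striatal level as a term it was 0.022 in KO (Pdgfrb 0.071, Myh11 0.077, Vtn 0.032, Cspg4 0.015, Notch3 0.13 and Myl9 0.028), and MUT against WT gave Pdgfrb 0.13, Vtn 0.20, Notch3 0.090 and Myl9 0.30. The meningeal fibroblast level as a term gave Acta2 -0.39, Myh11 -0.43 and Tagln -0.23 in MUT against WT and Pdgfrb -0.083, Vtn -0.0088 and Myl9 -0.015 in MUT against KO, where the endothelial level as a term gave Pdgfrb -0.11, Myh11 -0.017, Vtn -0.035 and Myl9 -0.044. With each library left out in turn, MUT against WT ranged from -0.46 to 0.54 for Acta2 and from -0.39 to 0.47 for Myh11. The correlation of the contractile with the fibroblast level was 0.61 without its 2 farthest libraries.

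No pairing by the replicate numbers in the labels was seen: deviations from the group means correlated from -0.38 to 0.29 over 12 same-number pairs, with 1 above 0.1. This check cannot exclude a shared batch. With the number as a replicate block 0 members passed in each comparison and the medians were -0.26, -0.01 and 0.21. Over all genes, KO against WT gave 75 calls in edgeR (22 higher, 53 lower), 63 without TMM scaling (31 higher, 32 lower), 647 with DESeq2, 52 with limma-voom, 2 with the block or the age term and 1 to 1620 with each library left out, the most without WT replicate 1. Depth limits Tagln most, at 73 to 369 counts per library.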
